A study of Homo sapiens with 6 samples.

Results

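The tubulin genes described here were the 10 genes TUBA1A, TUBA1B, TUBA1C, TUBA4A, TUBB, TUBB2A, TUBB2B, TUBB4B, TUBB6 and TUBG1, found by symbol among the 19330 genes of a ribosome footprint count table. They comprise 4 alpha-tubulin genes, 5 beta-tubulin genes and 1 gamma-tubulin gene. The rule that picked them used symbols and not values, but earlier results of these data were known. Ribosome profiling (Ribo-seq) sequences the mRNA fragments shielded by ribosomes, so the footprint count of a gene reflects both the abundance and the translation of its mRNA, and no RNA sequencing was used here to separate them. The cells were K562, a human chronic myelogenous leukemia line, transduced with the lentiviral CRISPR/Cas9 vector pLentiCRISPRv2. In 3 libraries (sgN6AMT1) the guide targeted N6AMT1, a methyltransferase that modifies the translation termination factor eRF1, and in 3 control libraries (sgCtrl) the guides targeted the olfactory receptor genes named OR11A1 and OR2M49 in the labels. Both groups were selected with puromycin for 48 h, carried the vector and were taken 10 days after infection as pools of transduced cells rather than clones. Which control guide each sgCtrl library carried is not stated. The comparison addressed how loss of N6AMT1 altered ribosome occupancy, and the methods describe separate lentiviral infections as the replicates.

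Alpha- and beta-tubulin form the heterodimers that polymerise into microtubules, the tracks of intracellular transport and the fibres of the mitotic spindle, while gamma-tubulin sits in ring complexes that nucleate them. New tubulin chains are handed by prefoldin to the CCT chaperonin, and the tubulin cofactors then assemble the dimer. Cells also adjust tubulin synthesis to the amount of free dimer: TTC5 binds the first residues of a nascent tubulin chain on the ribosome and, with SCAPER, recruits the CCR4-NOT deadenylase to degrade the mRNA being translated. Isotypes of each subunit are encoded by separate genes that differ most at the end of the coding sequence (CDS), which encodes the acidic tail that is modified on the microtubule surface.

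The ends of the CDS are printed here because the start is what the autoregulatory machinery reads in the nascent chain, the stop codon is where eRF1 acts, and the resemblance between genes decides how well footprints can be assigned. Sequences are from GENCODE release 44 on GRCh38, 5′ to 3′. The first 30 bases of each CDS follow, with the first 12 in capitals.
TUBA1A: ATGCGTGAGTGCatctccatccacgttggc
TUBA1B: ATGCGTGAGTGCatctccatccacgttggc
TUBA1C, listed transcript: ATGACAGCCTGGttcaatggggtggaggag
TUBA1C, canonical transcript: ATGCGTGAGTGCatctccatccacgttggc
TUBA4A: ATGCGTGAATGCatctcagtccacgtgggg
TUBB: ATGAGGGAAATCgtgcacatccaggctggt
TUBB2A: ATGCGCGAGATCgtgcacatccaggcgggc
TUBB2B: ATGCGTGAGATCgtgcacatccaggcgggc
TUBB4B: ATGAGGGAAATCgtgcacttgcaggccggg
TUBB6: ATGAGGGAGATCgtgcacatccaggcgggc
TUBG1: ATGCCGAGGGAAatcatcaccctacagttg
The first 30 bases of TUBA1A and TUBA1B differed at 0 positions, those of TUBB2A and TUBB2B at 1, and those of TUBB and TUBB6 at 3. The TUBA1C transcript listed in the count table begins with a different stretch, and its CDS is 1560 bases against 1350 in the canonical transcript of GENCODE, which starts like TUBA1A.

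The last 30 bases follow for 5 of the genes, with the stop codon in capitals, chosen to show the variable tails and the different stop codons.
TUBA4A: tatgaggacgaggatgagggagaagaaTAA
TUBB: ttcggtgaggaggccgaagaggaggccTAA
TUBB2A: gaggaggaggagggcgaggacgaggctTAA
TUBB6: gaggatgaggaagaggagatcgatggaTAG
TUBG1: tacatctcctggggcacccaggagcagTGA
The codon before the stop was gaa in TUBA4A, which does not encode the terminal tyrosine that is removed and restored enzymatically on most alpha-tubulins. The last 30 bases of TUBB differed from those of TUBB6 at 15 positions and from those of TUBB4B at 12, more than at the start of the CDS, where the counts were 3 and 4. By stop codon, 6 of the tubulin genes ended in TAA, 3 in TAG (TUBB2B, TUBB4B and TUBB6) and 1 in TGA (TUBG1). Among the 9115 tested genes with a known stop codon, 29.7% ended in TAA, 21.1% in TAG and 49.2% in TGA.

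On GRCh38, the 3 TUBA1 genes lay together on chromosome 12, TUBA1B at chr12:49127782-49131395 and TUBA1A at chr12:49184959-49188899 on the minus strand, and TUBA1C at chr12:49227926-49273334 on the plus strand. TUBB2A (chr6:3153666-3157544) and TUBB2B (chr6:3224277-3227653) were neighbours on the minus strand of chromosome 6, which also carried TUBB (chr6:30720352-30725422, plus strand). The remaining genes were TUBA4A (chr2:219249710-219253918, minus strand), TUBB4B (chr9:137241287-137243707, plus strand), TUBB6 (chr18:12308241-12326616, plus strand) and TUBG1 (chr17:42609683-42615238, plus strand). TUBG1 had 11 exons and each of the other 9 had 4.

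Footprints are short, so similar tubulin genes compete for the same reads, and the aligner places a read that fits several transcripts equally well on one of them. Of the windows of 26 bases along the CDS, 75.4% in TUBA1A, 82.4% in TUBA1B and 65.3% in TUBA1C also occurred in another listed transcript. TUBB2A and TUBB2B, whose CDS were 98.1% identical, shared 77.5% of their windows, and TUBG1 shared 46.4%, with its paralog TUBG2. The split of footprints within these 3 sets is therefore uncertain, and their sums are given below beside the single genes. For TUBB only 3.28% of the windows occurred elsewhere, against 14.5% for TUBB6, 22.5% for TUBA4A and 24.5% for TUBB4B. For TUBA4A the sharing was mainly with TUBA4B, whose CDS was 92.8% identical to it over 725 aligned bases. The methods name footprint lengths of 26 and 34 bases without making clear whether these were the only lengths kept or the limits of a range. At 34 bases the shares were 69.9% for TUBA1A, 0.307% for TUBB and 75.5% for TUBB2A and TUBB2B.

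The libraries held 1821356 to 2969736 footprint counts, and replicates of a group differed by more than counting noise, with chi-square statistics of 1.25 to 1.68 per degree of freedom. N6AMT1 itself, reported first because it was the target, was at 12.6, 8.27 and 16.8 CPM, the footprint counts scaled to a common library size, in the sgCtrl libraries and at 4.38, 3.89 and 4.34 CPM in the sgN6AMT1 libraries (log2 fold change -1.51, SE 0.31, edgeR adjusted p = 6.69e-05). All fold changes are sgN6AMT1 over sgCtrl, and a gene is said to have risen or fallen where the edgeR quasi-likelihood test gave a Benjamini-Hochberg adjusted p below 0.05 over 9202 tested genes. Of those genes, 26.9% passed. Erythroid markers such as globins and GATA1, fixed as a list of 10, were all detected, with sums of 27467 to 28972 CPM in sgCtrl and 27836 to 28777 CPM in sgN6AMT1, of which HBG1 and HBG2 made up the largest part. Within that list HBE1 and TAL1 rose and HBZ, GATA1, KLF1 and TFRC fell, as seen from their values, and the part of these changes in the tubulin values was not tested. Lymphoid markers summed to 73.3 to 95.8 CPM against 97.2 to 107 CPM, with CD2, MS4A1 and LCK at 0 in every library. PTPRC and CD3D made up most of that sum, and PTPRC rose from 46.2 ± 8.07 to 72.0 ± 5.36 CPM (edgeR adjusted p = 1.98e-05). CD3D, the only other lymphoid marker tested, was lower in sgN6AMT1 and did not pass. It was at 35.7 ± 4.45 and 29.2 ± 2.43 CPM (log2 fold change -0.31, edgeR adjusted p = 0.114). Megakaryocyte markers summed to 27.6 to 34.7 CPM in sgCtrl and 13.03 to 17.3 CPM in sgN6AMT1, with GP1BA, PF4 and VWF at 0, and their part in the tubulin values was not tested. Among them ITGA2B fell from 11.9 ± 0.95 to 3.40 ± 1.29 CPM (log2 fold change -1.79, edgeR adjusted p = 4.27e-06). Of the 8 megakaryocyte markers only 3 were tested, and 2 fell, ITGA2B and the tubulin gene TUBB1. The third, ITGB3, was at 4.94 ± 1.54 and 4.64 ± 0.26 CPM (-0.08, edgeR adjusted p = 0.908). Fibroblast and epithelial markers summed to 199 to 232 CPM and 212 to 227 CPM, with KRT5 at 0. Most of that sum was EPCAM, at 177 ± 13.8 CPM in sgCtrl and 184 ± 10.6 CPM in sgN6AMT1.

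The tubulin genes spanned a wide range of ribosome occupancy. Per length, as CPM per kilobase of CDS over all 6 libraries, TUBB was highest with a median of 3810 (lowest 3431, highest 4023). TUBA1B followed at 2330 (2135 to 2455), TUBA1C at 1423 (1369 to 1538) and TUBA1A at 1268 (1163 to 1335). TUBB, TUBA1B and TUBA1C are the widely expressed isotypes of dividing cells. TUBB4B, a widely expressed beta isotype also used in cilia, had a median of 552 CPM per kilobase (469 to 572). TUBB6, a minor beta isotype, stood at 100 CPM per kilobase (85.3 to 125). The lowest 4 were TUBG1 at 71.4 (67.2 to 78.1), TUBA4A at 67.7 (65.8 to 76.7), TUBB2A at 65.4 (62.6 to 74.3) and TUBB2B at 45.8 (39.0 to 47.9). In this order the ranges of neighbours overlapped for TUBG1 with TUBA4A and for TUBA4A with TUBB2A, and for no other pair of neighbours. These ranges do not measure the placing of shared reads, on which the order within the TUBA1 genes and of TUBB2A and TUBB2B also depends. TUBA1C was scaled to its listed CDS of 1560 bases, longer than the 1350 of the canonical transcript. The mean of TUBB was 84.1 times that of TUBB2B. Among 9129 genes with a CDS length, TUBB ranked 33 per kilobase.

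**Figure D1:**
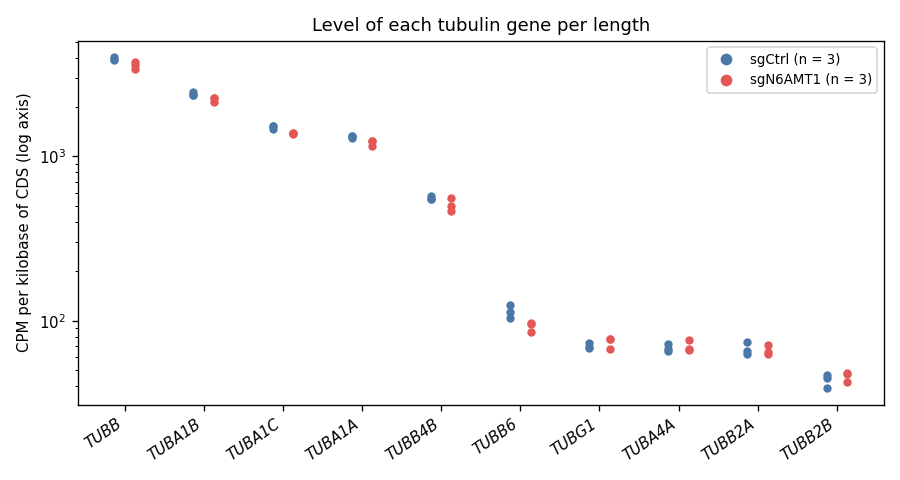
Footprint level of each tubulin gene as CPM per kilobase of CDS on a log axis, 1 point per library, for sgCtrl (n = 3) and sgN6AMT1 (n = 3). TUBB lay highest, between 3431 and 4023, and TUBB2B lowest, between 39.0 and 47.9.

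Of the 10 tubulin genes, 6 fell in sgN6AMT1 cells (TUBA1A, TUBA1B, TUBA1C, TUBB, TUBB4B and TUBB6) and 0 rose. Over all tested genes 13.9% fell and 12.9% rose, and among the 3211 genes at least as abundant as TUBB2B 26.3% fell. The changes were small: TUBB6 fell to 0.812 of its control level, and the other 5 had log2 fold changes of -0.14 to -0.11. The median log2 fold change of the 10 genes was -0.12, against 0.0063 over all genes tested. The 6 that fell were also the 6 most abundant per kilobase. All 6 kept a negative fold change under each of 14 alternative settings, but only TUBB6 passed the test when libraries were scaled to total counts alone, and 3 did (TUBA1C, TUBB and TUBB6) with upper-quartile factors. Of 9202 tested genes, 976 fell with total counts alone and 1179 with upper-quartile factors. The count of 0 genes that rose held in the same 14 alternatives, DESeq2 and limma-voom among them, and at an unadjusted p under 0.05 it was also 0.

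TUBB encodes the main beta-tubulin of dividing cells. It was at 5371, 5148 and 5261 CPM in sgCtrl and at 4580, 4802 and 5025 CPM in sgN6AMT1. All 3 sgN6AMT1 libraries lay below the lowest control. The mean fell from 5260 ± 111 to 4802 ± 222 CPM (SD, 3 libraries in each group), or to 0.913 of the control, with a log2 fold change of -0.13 (SE 0.040, adjusted p = 0.00852 by edgeR). The call was lost without sgN6AMT1 library 1 or library 2, where the counts of tubulin genes that fell were 3 and 1. Over all tested genes, 1172 of 9292 and 953 of 9277 fell in those fits.

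TUBB6 showed the largest fall of the 10 genes. Its level was 153, 139 and 168 CPM in sgCtrl against 114, 130 and 128 CPM in sgN6AMT1, on raw counts of 304, 404 and 341 against 261, 300 and 235. The groups did not overlap. The mean fell from 153 ± 14.4 to 124 ± 8.26 CPM (log2 fold change -0.30, SE 0.083, edgeR adjusted p = 0.00315, 95% interval -0.46 to -0.14). Without sgCtrl library 3 the adjusted p was 0.0516, and TUBB6 passed in every other alternative.

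TUBB4B was at 740, 765 and 737 CPM in sgCtrl and at 627, 664 and 746 CPM in sgN6AMT1. The third sgN6AMT1 library lay within the control range, so the groups overlapped, although the gene passed the test (747 ± 15.3 to 679 ± 60.7 CPM, log2 fold change -0.14, SE 0.052, edgeR adjusted p = 0.0321). With DESeq2 the adjusted p of TUBB4B was 0.113, and the call was lost in 7 of the 14 alternatives, among them those without sgCtrl library 2 or sgN6AMT1 library 1 or 2. The log2 fold change was -0.089 without sgN6AMT1 library 1 and -0.22 without sgN6AMT1 library 3.

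The 3 TUBA1 genes encode nearly identical alpha-tubulins. TUBA1B was at 3232, 3230 and 3329 CPM in sgCtrl and 3090, 3058 and 2896 CPM in sgN6AMT1 (log2 fold change -0.11, SE 0.041, edgeR adjusted p = 0.0298). TUBA1C was at 2389, 2282 and 2398 CPM against 2158, 2157 and 2136 CPM (-0.13, SE 0.043, adjusted p = 0.0135). TUBA1A, known for its role in the developing brain, was at 1746, 1806 and 1810 CPM against 1578, 1674 and 1693 CPM (-0.12, SE 0.044, adjusted p = 0.0373). In each of the 3 genes the groups did not overlap. Because these genes share most of their windows, their sum is the firmer measure: it went from 7407 ± 116 to 6813 ± 83.1 CPM (SD, n = 3 each), and here too the groups did not overlap. None of the 3 passed without sgCtrl library 3 or without sgN6AMT1 library 2. TUBA1A was also lost without sgCtrl library 2 or sgN6AMT1 library 1, TUBA1B without sgN6AMT1 library 3, and TUBA1C without sgCtrl library 1.

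The 4 least abundant genes did not pass the test. TUBA4A, the alpha isotype without the encoded tyrosine, was at 96.9, 88.6 and 91.2 CPM in sgCtrl and 89.9, 103 and 91.2 CPM in sgN6AMT1. Its log2 fold change was 0.05 with a 95% interval of -0.14 to 0.23 (edgeR adjusted p = 0.771). TUBG1, the gamma-tubulin that nucleates microtubules, was at 94.4, 93.1 and 99.1 CPM against 91.2, 105 and 106 CPM (0.08, interval -0.11 to 0.26, adjusted p = 0.606). In both genes the groups overlapped. TUBB2A and TUBB2B, best known from neurons, were at 99.5, 83.8 and 88.2 CPM against 86.8, 83.8 and 95 CPM, and at 52.2, 60.0 and 62.6 CPM against 57.0, 63.9 and 64.1 CPM. Their log2 fold changes were -0.03 (interval -0.22 to 0.17, adjusted p = 0.874) and 0.07 (interval -0.15 to 0.30, adjusted p = 0.688), and the value of TUBB2A was 0.027 with total counts alone. Their sum, which a misplaced read between them does not change, was 149 ± 4.36 CPM in sgCtrl and 150 ± 7.93 CPM in sgN6AMT1. The intervals of TUBA4A, TUBB2A and TUBB2B included the log2 fold change of TUBB, -0.13, while that of TUBG1 did not, and differences between genes were not tested. These genes had 104 to 270 counts per library, and the SE of their log2 fold changes was 0.094 to 0.11.

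**Figure D2:**
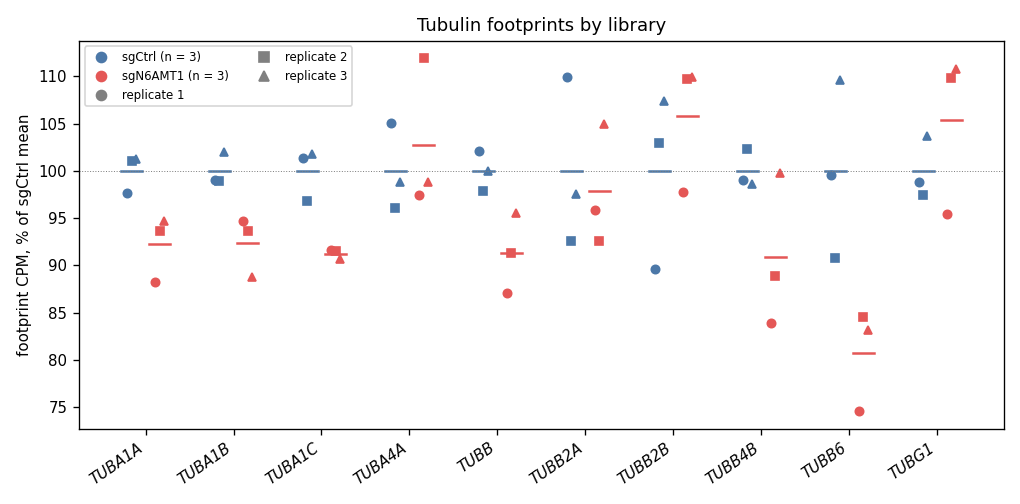
CPM of each tubulin gene in each library as a percentage of the sgCtrl mean of that gene (n = 3 libraries per group, marker shape gives the replicate number, bars are group means). In TUBA1A, TUBA1B, TUBA1C, TUBB and TUBB6 the sgN6AMT1 points all lay below the sgCtrl points, and in the other 5 genes the groups overlapped; with total counts as the only scaling, TUBB6 alone passed the test.

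The groups did not overlap in 5 of the 10 genes, against 37.5% of all genes tested and 50% of the 3211 genes at least as abundant. Non-overlap of the groups was therefore no more frequent in the tubulin genes than among those abundant genes. Scaling also moved values by an amount comparable to these changes, since leaving out the trimmed-mean factors shifted all log2 fold changes by 0.055, and 1560 genes rose and 976 fell in place of 1191 and 1282.

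**Figure D3:**
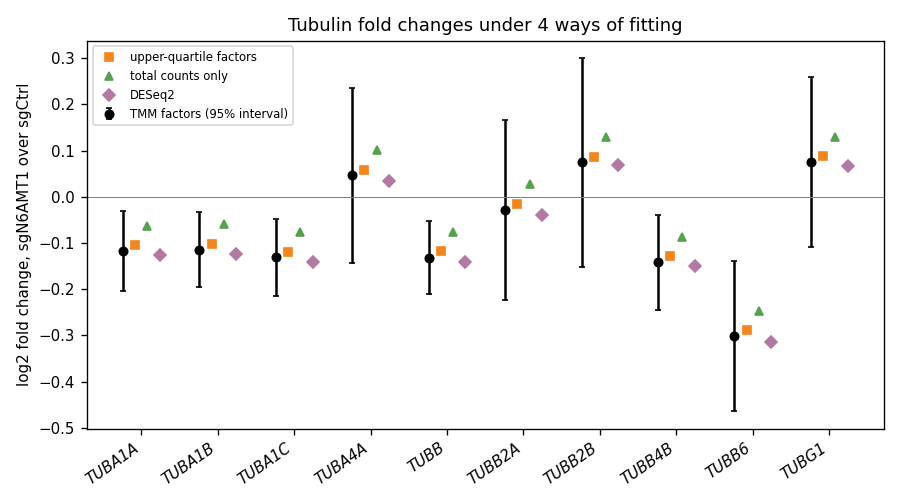
Log2 fold change of each tubulin gene (sgN6AMT1 over sgCtrl, n = 3 each) with trimmed-mean (TMM) factors and its 95% interval, with upper-quartile factors, with total counts alone, and by DESeq2. The 6 genes that fell stayed below 0 in all 4, and TUBB2A, at -0.03 with TMM factors, was at 0.027 with total counts.

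Summed over genes, alpha-tubulin footprints were at 7463, 7406 and 7629 CPM in sgCtrl and 6915, 6992 and 6816 CPM in sgN6AMT1. Beta-tubulin footprints were at 6416, 6196 and 6316 CPM against 5465, 5744 and 6057 CPM. Both subunits were lower in all 3 sgN6AMT1 libraries than in any control. The means went from 7500 ± 116 to 6908 ± 88.6 CPM for alpha and from 6309 ± 110 to 5755 ± 296 CPM for beta (SD, n = 3 each). As a share of all counts, with no scaling factor, the 10 genes made up 1.34 to 1.37% of the sgCtrl libraries and 1.26 to 1.31% of the sgN6AMT1 libraries. On that scale the alpha sum still did not overlap between groups (0.733 ± 0.010% and 0.700 ± 0.011% of all counts), and the beta sum did (0.617 ± 0.012% and 0.583 ± 0.029%).

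The ratio of the subunits overlapped between the groups. The ratio of alpha to beta counts was 1.16, 1.20 and 1.21 in sgCtrl and 1.27, 1.22 and 1.13 in sgN6AMT1, with means of 1.19 ± 0.023 and 1.20 ± 0.071. Corrected for CDS length it was 1.12 ± 0.022 and 1.14 ± 0.067.

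The isotype mix within each subunit was dominated by few genes. In sgCtrl, TUBA1B supplied 43.5 ± 0.19% of the alpha-tubulin counts, TUBA1C 31.4 ± 0.60%, TUBA1A 23.8 ± 0.51% and TUBA4A 1.23 ± 0.059%. In sgN6AMT1 the shares were 43.6 ± 1.10%, 31.1 ± 0.25%, 23.9 ± 1.02% and 1.37 ± 0.093%. The split among the TUBA1 genes is uncertain because of their shared windows. TUBB supplied 83.4 ± 0.32% of the beta-tubulin counts in sgCtrl and 83.5 ± 0.44% in sgN6AMT1, and TUBB4B 11.8 ± 0.43% and 11.8 ± 0.46%. TUBB6 made up 2.43 ± 0.21% and 2.15 ± 0.091%, with overlapping groups. The shares of TUBA4A and of TUBB2B (0.925 ± 0.096% and 1.07 ± 0.037%) did not overlap between groups and were higher in sgN6AMT1, where the denominators were lower. No test was made on the shares.

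**Figure D4:**
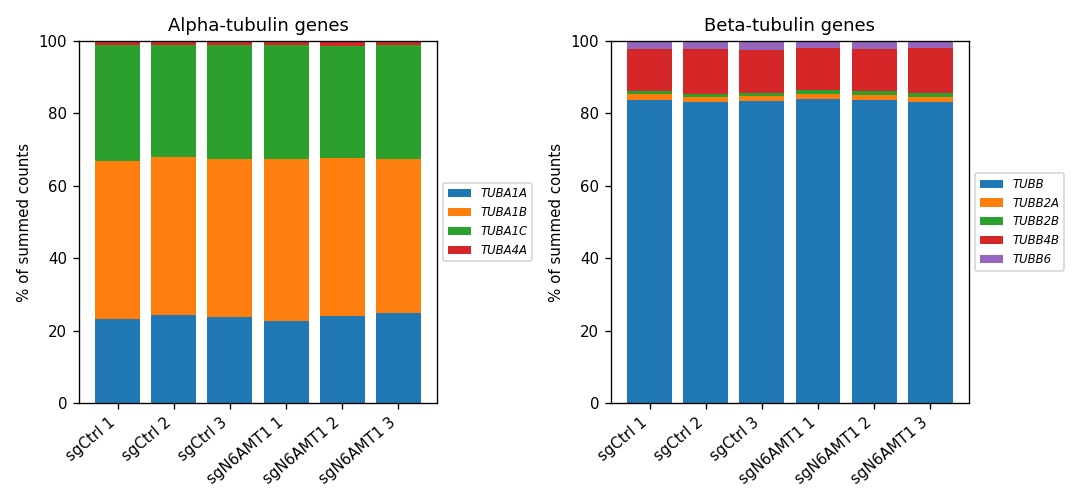
Share of each gene in the summed alpha-tubulin counts (left) and beta-tubulin counts (right) in percent, 1 bar per library. TUBA1B at about 43.5% and TUBB at about 83.4% led their subunits in every library of both groups.

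The rarer tubulin genes gave a mixed picture, to be read beside the 13.9% of all tested genes that fell and the 12.9% that rose. Of 12 further tubulin genes fixed as a list, 11 were in the table and 8 could be tested, of which 2 fell and 0 rose. These were TUBB1, the beta isotype of platelets and their precursors, at 12.7 ± 2.17 and 7.18 ± 1.54 CPM (log2 fold change -0.77, SE 0.27, edgeR adjusted p = 0.0224), and TUBB8, at 55.6 ± 1.84 and 42.5 ± 9.11 CPM (-0.41, SE 0.13, adjusted p = 0.00924), named after its values were seen. TUBB1 was itself one of the megakaryocyte markers above. Of the 26-base windows of the far more abundant TUBB4B, 11.9% also occurred in TUBB8. The split of footprints between these genes is therefore uncertain, and the fall of TUBB8 may not be separate from that of TUBB4B. Neither passed with DESeq2 (adjusted p = 0.175 and 0.135). TUBB1 was also lost without sgCtrl library 1 or 3 or sgN6AMT1 library 2 or 3, and TUBB8 without sgN6AMT1 library 1 or 2. TUBB3, the neuronal beta isotype, had a log2 fold change of 0.01 (adjusted p = 0.988), which was -0.015 by DESeq2. TUBD1 and TUBE1, the delta- and epsilon-tubulins of centrioles, were at 0.01 (adjusted p = 0.971) and 0.10 (adjusted p = 0.790). TUBG2, which shares windows with TUBG1, was at 0.37 (SE 0.17, adjusted p = 0.0907) and passed with total counts alone (adjusted p = 0.0464) and without sgCtrl library 3 or sgN6AMT1 library 3 (0.59 and 0.47). It was at 0.17 (adjusted p = 0.558) without sgCtrl library 2 and at 0.21 (adjusted p = 0.4997) without sgN6AMT1 library 2. The sum of TUBG1 and TUBG2 was 121 ± 9.96 CPM in sgCtrl and 132 ± 10.2 CPM in sgN6AMT1, with overlapping groups.

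Among the genes that fold tubulin, 21 of 22 listed were tested, of which 9 fell and 3 rose, with a median log2 fold change of -0.18. Over all tested genes the shares were 13.9% and 12.9%, and 26.3% fell among the 3211 genes at least as abundant as TUBB2B. Within the list the falls were mostly in the CCT chaperonin, the ring that folds actin and tubulin, where 6 of 8 subunits fell. CCT8 fell from 1581 ± 88.7 to 1228 ± 47.5 CPM (log2 fold change -0.37, SE 0.046, edgeR adjusted p = 2.88e-10). It was at 1490, 1667 and 1587 CPM in sgCtrl and 1282, 1205 and 1196 CPM in sgN6AMT1, without overlap. CCT8 lies on chromosome 21, as N6AMT1 does, and a link between that position and its fall was not tested. The other subunits, named after their values were seen, were CCT3 at -0.30, CCT6A at -0.29, CCT7 at -0.21 and CCT2 and CCT5 at -0.18 on the log2 scale. TCP1, at -0.05 (adjusted p = 0.432), and CCT4, at 0.09 (adjusted p = 0.134), did not pass. With total counts alone TCP1 was at 0.00076 and CCT4 passed as a rise (0.15, adjusted p = 0.011), as it did with a filter at a mean of 50 counts (0.12, adjusted p = 0.0409). CCT2 was lost without sgN6AMT1 library 2.

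The cofactors that release and join the folded subunits changed in both directions. TBCE, which acts on alpha-tubulin, fell from 104 ± 2.55 to 65.7 ± 9.17 CPM (log2 fold change -0.67, SE 0.10, edgeR adjusted p = 1.33e-07). TBCB, its partner on alpha-tubulin, rose from 27.3 ± 6.93 to 41.0 ± 3.19 CPM (0.63, SE 0.15, adjusted p = 0.00056). TBCC, which completes the dimer, rose by 0.45 on the log2 scale (adjusted p = 0.00307). TBCB and TBCC were each lost without sgCtrl library 2, and TBCC also with DESeq2. The remaining 3 that passed, named after their values were seen, were TBCD at -0.35, and the prefoldin subunits PFDN5 at -0.28 and PFDN1 at 0.37 on the log2 scale. TBCD was lost without sgCtrl library 1 and PFDN1 without sgCtrl library 2 or sgN6AMT1 library 2, and neither passed with DESeq2.

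In the autoregulatory pathway, 11 genes were tested, of which 2 rose and 1 fell, with a median log2 fold change of 0.12. Of all tested genes 12.9% rose and 13.9% fell. TTC5, the factor that reads the nascent tubulin chain, was at 15.9 CPM in both groups (log2 fold change 0.0080, edgeR adjusted p = 0.987), a value that was -0.0047 by DESeq2. SCAPER, the adaptor between TTC5 and the deadenylase, fell from 7.90 ± 0.75 to 2.97 ± 1.63 CPM (-1.34, SE 0.37, adjusted p = 0.00295), on counts of 14, 24 and 17 against 9, 9 and 2. The deadenylase subunits CNOT10 (162 ± 18.2 to 200 ± 25.7 CPM, 0.29, adjusted p = 0.00207) and CNOT7 (15.6 ± 2.44 to 23.1 ± 4.48 CPM, 0.56, adjusted p = 0.0209) rose, with overlapping groups. With DESeq2 none of the 3 passed (adjusted p = 0.0739, 0.0601 and 0.212), and without sgN6AMT1 library 1 neither CNOT10 (0.19) nor CNOT7 (0.47) did. CNOT7 was also lost without sgCtrl library 1 or sgN6AMT1 library 2.

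Of 21 tested genes of the gamma-tubulin ring and of augmin, which branches microtubules in the spindle, 4 fell and 0 rose, with a median log2 fold change of -0.10. By comparison, 13.9% of all tested genes fell and 12.9% rose. PCNT, the centrosomal scaffold pericentrin, fell from 81.1 ± 5.05 to 51.9 ± 7.78 CPM (-0.65, SE 0.11, edgeR adjusted p = 2.67e-06) and is another gene on chromosome 21. It starts at chr21:46324156 and CCT8 at chr21:29056326, and a link between position and either fall was not tested. TUBGCP5, a ring subunit, had -0.44 (adjusted p = 0.0373), and the augmin subunits HAUS1 and HAUS7, named after their values were seen, had -0.38 and -0.35. Only PCNT passed with DESeq2. TUBGCP5 was lost in 5 of the 6 fits without a single library, HAUS1 without sgCtrl library 2 (-0.23), and HAUS7 without sgCtrl library 1 or sgN6AMT1 library 1 or 2.

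Of 25 tested genes of microtubule dynamics, 5 rose and 2 fell, with a median log2 fold change of -0.04 that was 0.015 with total counts alone. Shares over all tested genes were 12.9% for rises and 13.9% for falls. MAPRE3, an end-binding protein of growing plus ends, rose from 22.3 ± 1.49 to 50.6 ± 2.03 CPM (1.19, SE 0.14, edgeR adjusted p = 2.35e-11). It was at 23.6, 20.7 and 22.7 CPM in sgCtrl and at 48.7, 52.7 and 50.5 CPM in sgN6AMT1, without overlap. MAP1A, a microtubule-binding protein best known in neurons, rose from 150 ± 8.68 to 211 ± 7.42 CPM (0.50, SE 0.073, adjusted p = 2.82e-08). CLASP2, which stabilises plus ends, fell by 0.32 on the log2 scale (adjusted p = 0.00555) and CKAP5, a microtubule polymerase, by 0.18 (adjusted p = 0.0107), and neither passed with DESeq2. CLASP2 was also lost without sgCtrl library 2 or sgN6AMT1 library 2, and CKAP5 without sgCtrl library 1. The other 3 that rose, named after their values were seen, were CAMSAP2, MAP1S and STMN1, the last a tubulin-sequestering protein at 785 ± 31.3 and 900 ± 25.5 CPM (0.20, adjusted p = 0.000842). CAMSAP2 and MAP1S did not pass with DESeq2 or without sgCtrl library 2, and CAMSAP2 was also lost without sgN6AMT1 library 1 or 2 and MAP1S without sgN6AMT1 library 3.

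Of 12 tested genes that modify tubulin, 1 rose and 1 fell, with a median log2 fold change of -0.0066 that was 0.048 with total counts alone. Here too the shares over all tested genes were 12.9% and 13.9%. TTLL12, a member of the tubulin tyrosine ligase-like family, fell from 164 ± 9.60 to 122 ± 12.2 CPM (-0.43, SE 0.081, edgeR adjusted p = 1.48e-05). TTLL7, a polyglutamylase of beta-tubulin named after its values were seen, rose from 4.54 ± 0.58 to 10.6 ± 2.63 CPM (1.20, SE 0.31, adjusted p = 0.00134), and DESeq2 gave it an adjusted p of 0.0544.

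**Figure D5:**
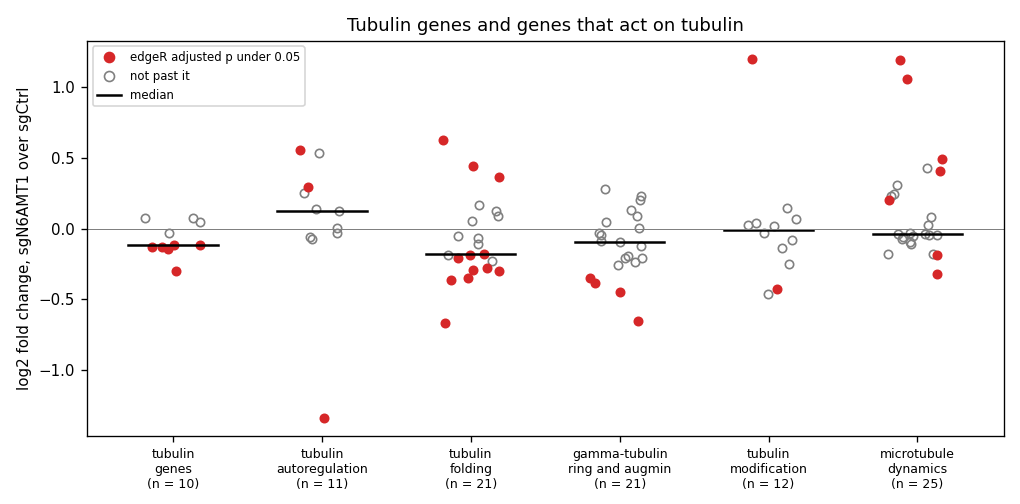
Log2 fold change (sgN6AMT1 over sgCtrl, n = 3 each) of the tested genes of each list, filled where the edgeR adjusted p was below 0.05, with the list's median as a line. The tubulin genes lay between -0.30 and 0.08, the folding genes had a median of -0.18, and the medians for modification and dynamics, -0.0066 and -0.04, were above 0 with total counts alone.

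TUBB was the normaliser of the NanoString assay of mitochondrial transcripts in the study, which also used antibodies against actin, GAPDH and TOM20. The footprints of TUBB and of ACTB, GAPDH and TOMM20 all passed the test, as did 26.9% of all tested genes. Among the 3211 genes at least as abundant as TUBB2B, which include these 4, 41.5% passed. With total counts alone TUBB did not pass (edgeR adjusted p = 0.146), and neither did TOMM20 (log2 fold change -0.12). Footprints are a different measure from the mRNA counted by NanoString and the protein bound by antibodies. Neither mRNA nor protein levels of these genes were examined here. GAPDH, a glycolytic enzyme, fell from 5034 to 3139 CPM (log2 fold change -0.68, SE 0.041, edgeR adjusted p = 1.92e-26), and TOMM20, a mitochondrial import receptor, was at 307 and 272 CPM (-0.18, SE 0.061, adjusted p = 0.0238). ACTB, cytoplasmic actin, was at 4358 and 4730 CPM (0.12, SE 0.041, adjusted p = 0.0224), with overlapping groups. ACTB and TOMM20 did not pass with DESeq2 (adjusted p = 0.105 and 0.0968). Both were lost without sgCtrl library 2 and without sgN6AMT1 library 2 or 3, and ACTB also without sgCtrl library 3.

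The genes outside the family whose profile over the 6 libraries lay closest to the summed alpha-tubulin counts, among 3651 candidates, were NDUFV1, H3F3A and NME1-NME2, with root mean square differences of 0.019, 0.022 and 0.022 in centred log2 CPM, where the median candidate had 0.130. For the beta sum they were CHD4, HNRNPL and SLC25A6, at 0.020, 0.021 and 0.021, with a median of 0.140. The genes were picked as the smallest differences, so their lying below the median candidate was fixed by that choice.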

How the data were processed

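The authors deposited whole-number footprint counts per transcript, unnormalized and not pooled, for 6 libraries. They trimmed reads with cutadapt, removed rRNA and tRNA reads, and mapped the rest to 1 transcript per gene with Bowtie2; whether the table holds P-site counts of the CDS or annotation overlaps is not stated in the sources used here. Molecular identifiers are not described, so counting error is a lower limit of the error of a count.

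Genes passing filterByExpr (minimum count 10, 9202 genes) were fitted with TMM factors and the robust quasi-likelihood F test of edgeR 4.0.16 in R 4.3.3, 2-sided, with Benjamini-Hochberg adjustment. CPM use TMM-adjusted library sizes, and intervals are 1.96 SE to each side. DESeq2 1.42.0, limma-voom (limma 3.58.1), other factors and filters, the replicate number as a block, and leaving out each library were alternatives. P-values measure the spread between these libraries. Same-numbered libraries correlated at -0.059, 0.022 and 0.016 in their deviations from group means, so the numbers were not taken as pairs. Transcripts were matched to GENCODE release 44 by identifier for 9 tubulin genes. For TUBB the canonical transcript of that symbol was used. Some CDS ends are not reported here.

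The tubulin genes and the lists were chosen with earlier results of these data known. Named were all 10 tubulin genes, N6AMT1, TTC5, SCAPER, CCT8, TUBE1, TUBD1, TUBG2, TUBB1, TUBB3, ACTB, GAPDH and TOMM20, the 2 largest changes in each direction per list at a mean of at least 10 CPM, and for the alpha and beta sums the 3 nearest profiles at a mean of at least 50 CPM.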

Additional observations from a re-analysis of the deposited data

How the results depend on the processing

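The 6 tubulin genes that fell had negative log2 fold changes in all 14 alternatives, between -0.38 and -0.06, but their calls depended on scaling and on single libraries. In place of 6, the tubulin genes that fell numbered 3 with upper-quartile factors, 1 with total counts, 3 with a mean of at least 50 counts, and 1 to 5 when 1 library was left out: 5 without sgCtrl library 1, 4 without library 2 and 2 without library 3, and 3, 1 and 5 without sgN6AMT1 libraries 1, 2 and 3. Over all genes, 1282 of 9202 tested fell in the main fit, 1179 of 9202 with upper-quartile factors and 976 of 9202 with total counts. At a mean of 50 counts 1006 of 5874 fell, and 953 to 1203 genes fell when 1 library was left out. With the replicate block 5 fell, and TUBA1A was lost (log2 fold change -0.12, edgeR adjusted p = 0.0647); 2390 genes were called over all, against 2473. DESeq2 called 1324 genes. The common biological coefficient of variation, a spread between single libraries, was 4.36%. Of the 6 genes, TUBB6 had a log2 fold change of -0.30 (SE 0.083). The changes of the other 5 were small, at -0.14 to -0.11 with SE of 0.040 to 0.052. N6AMT1 fell in the 13 alternatives that kept it, from -1.80 to -1.25, and was removed by the filter at a mean of 50 counts.

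Called genes of the lists numbered 3 for autoregulation (DESeq2 0, a mean of 50 counts 1, leaving out a library 1 to 4), 4 for the gamma-tubulin ring and augmin (DESeq2 1, total counts 2, leaving out a library 2 to 3), 2 for modification (DESeq2 1, a mean of 50 counts 1) and 7 for dynamics (DESeq2 3, leaving out a library 4 to 7). Folding stayed at 9 to 13. Over all genes the calls numbered 2473 of 9202 tested, and 1324 of 10780 with DESeq2. They numbered 2536 of 9202 with total counts, 1973 of 5874 with a mean of 50 counts, and 1859 to 2322 when a library was left out. Signs turned only for genes that had not passed: when 1 library was left out, TUBA4A ran from -0.024 to 0.086, TUBB2A from -0.092 to 0.038, TUBB3 from -0.090 to 0.048, TUBD1 from -0.044 to 0.064, TUBE1 from -0.015 to 0.19 and TTC5 from -0.058 to 0.053. TUBB2A was at 0.027 and TCP1 at 0.00076 with total counts, TUBB3 at -0.015 with DESeq2, -0.0051 without a filter and -0.0070 with the replicate block, and TTC5 at -0.0047 with DESeq2 and -0.0021 without a filter. The cause of these shifts was not tested.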
